A study of Mus musculus with 4 samples.

Results

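Spots of mouse olfactory bulb tissue with the highest levels of 6 neuroblast genes (Dcx, Sox11, Cd24a, Igfbpl1, Dlx1 and Dlx2) are described here. A spot covers a little area of tissue, so RNA of several cells, and of more than 1 cell type, can be pooled in it. Among spots with at least 500 UMIs (unique molecular identifiers, each standing for 1 captured RNA molecule), the summed UMIs of the 6 genes were divided by all UMIs of the spot, and the top 5% of each library by this score were taken. That gave 83, 35, 64 and 47 spots in libraries 1 to 4, which is 229 of 4616 kept spots. They are called member spots below. The other 1579, 680, 1232 and 896 kept spots of the same 4 libraries are called other spots. The 6 genes are known markers of migratory stream neuroblasts, and the score that chose the spots was measured in these same data.

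The tissue came from 1 mutant mouse and 1 control mouse, both killed at 5 months, and was cut into coronal sections of 10 micrometres from fresh-frozen bulbs for Visium, a slide-based method that gives an expression profile per spot. In the mutant mouse VEGF (vascular endothelial growth factor) was blocked at e13.5, in mid-gestation, with a transgenic soluble VEGFR1 under tetracycline-regulated control by camk2a-tTa, and its bulb is described by the submitters as degenerated. It gave 2 samples of 2 sections each. The control mouse gave 2 samples, of 2 sections and of 1 section. The labels state the treatment protocol for both and do not say which of its alleles the control mouse carried. All counts stand in a single matrix in which libraries are told apart by the numbers 1 to 4 alone. No label ties a number to a mouse, so mutant and control were not compared. With 1 mouse a condition there would be no replicates. Every value below is given per library, and its interval (95%, exact) covers counting error only.

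Neuroblasts are young neurons that are born in the wall of the lateral ventricle throughout life and move in chains along the rostral migratory stream into the centre of the olfactory bulb. There they leave the stream and become granule cells, the inhibitory neurons that fill the bulb's core, or periglomerular cells near its surface. Doublecortin, encoded by Dcx, binds microtubules of migrating neurons. Sox11 encodes a transcription factor of immature neurons, Cd24a a surface glycoprotein found on neuroblasts, and Dlx1 and Dlx2 encode homeodomain transcription factors of the inhibitory neuron lineage, parts of which stay on in mature interneurons. Igfbpl1 encodes a secreted protein related to insulin-like growth factor binding proteins.

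The member spots did not carry the 6 genes alike in the 4 libraries. A median of 3, 4, 7 and 7 score UMIs stood behind a member spot of libraries 1 to 4. In libraries 3 and 4, 85.9% and 76.6% of member spots held at least 3 of the 6 genes, against 32.5% and 34.3% in libraries 1 and 2. In libraries 1 and 2, 28 of 83 and 9 of 35 member spots had been chosen on a single gene, and that gene was Dlx1 in 22 and 9 of them. In libraries 3 and 4, 4 of 64 and 2 of 47 member spots had been chosen on a single gene, which was Dlx1 in 2 and 1 of them. Dlx1 supplied 49.2%, 58.9%, 32.1% and 32.2% of the score UMIs. At the edge of the choice, the last member of library 1 had 1 score UMI among 776 (a score of 1289 CPM, counts per 1000000 UMIs), and the first spot left out had 15 among 11659 (1287 CPM). In library 2 the spots at the edge had 5 of 3419 (inside) and 2 of 1392 (outside), in library 3 they had 7 of 5412 and 11 of 8598, and in library 4 they had 6 of 4767 and 6 of 4873.

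Member spots were also shallow. Their median depth was 1519, 1867, 4067 and 3751 UMIs in libraries 1 to 4, against 8241, 7568, 9506 and 10134 UMIs in other spots. Under 2000 UMIs stood 56 of 83, 21 of 35, 6 of 64 and 6 of 47 member spots. Mitochondrial transcripts made up 3.05%, 2.73%, 2.66% and 2.37% of the UMIs of member spots and 9.02%, 9.64%, 7.45% and 7.56% of those of other spots. The score divides by depth, so the main genes below are also given against other spots of like depth, the 2 in the same library nearest in UMIs to each member spot, a comparison added after these depths were seen. Where no such value is printed, a ratio is to all other spots and has no check on depth. The other spots of like depth had 6.01%, 5.03%, 6.98% and 8.30% mitochondrial UMIs. The part of depth and of mitochondrial share in the results was not tested beyond this comparison. Of 2796 distinct barcodes, 1460 occurred in at least 2 libraries, and the library number was used to keep them apart.

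**Figure D1:**
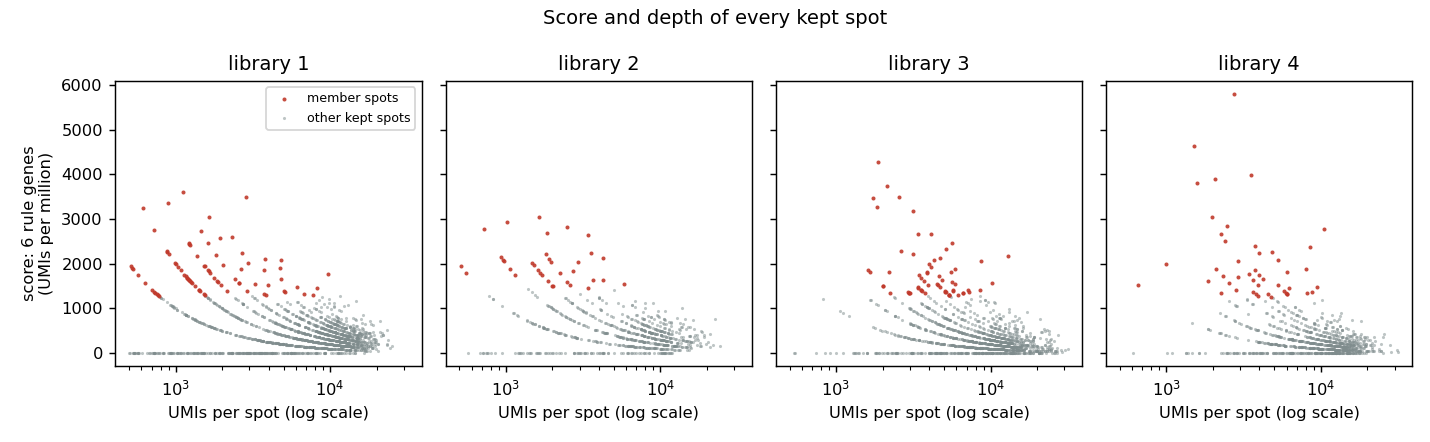
Score of the 6 genes (CPM, y axis) against UMIs per spot (x axis, log scale) for each kept spot of libraries 1 to 4, with member spots in red and other spots in grey. Member spots lie mostly under 2000 UMIs in libraries 1 and 2 and mostly above it in libraries 3 and 4, and the curved rows at the left are spots with the same small number of score UMIs.

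Levels of the 6 genes describe the choice and are no finding. They are given in CPM, from UMIs summed over spots. Dcx had 305, 308, 492 and 455 CPM in member spots of libraries 1 to 4, against 66.2, 77.9, 61.6 and 53.9 CPM in other spots. Sox11 had 88.6, 120, 200 and 298 CPM in member spots, against 9.22, 11.1, 19.0 and 22.0 CPM in other spots. Dcx and Sox11 were thus higher in the member spots of libraries 3 and 4 than in those of libraries 1 and 2. Dlx1 ran the other way among member spots, with 870, 1151, 562 and 616 CPM, against 155, 171, 88.8 and 76.9 CPM in other spots. Dlx2 had 294, 227, 179 and 177 CPM in member spots and 56.5, 59.6, 34.6 and 28.3 CPM in other spots. Igfbpl1 had 60.9, 107, 123 and 172 CPM in member spots and 9.83, 7.77, 18.5 and 12.3 CPM in other spots. Cd24a had 150, 40.1, 193 and 197 CPM in member spots and 50.4, 42.3, 28.3 and 26.6 CPM in other spots. In library 2 its member value rested on 3 UMIs and did not exceed that of the other spots.

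**Figure D2:**
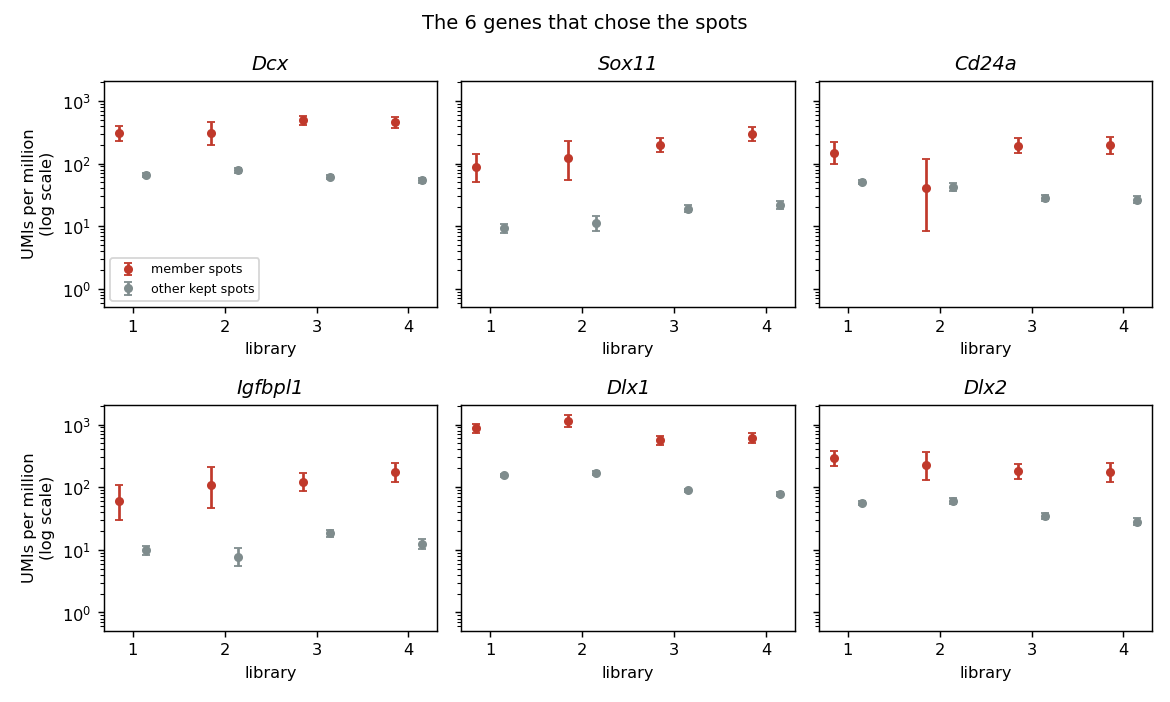
Level of each of the 6 score genes (CPM, log scale) in member spots (red, left) and other spots (grey, right) of libraries 1 to 4, with exact 95% Poisson intervals. Dlx1 is the highest of the 6 in member spots of every library, and Cd24a in library 2 is the 1 case in which both sets of spots overlap.

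Promoters of 3 genes are shown because the results turn on them. Dlx1 supplied the most score UMIs, Sp9 encodes a zinc finger transcription factor of the same lineage that was outside the score, and Dpysl5 encodes a cytoskeletal protein of growing neurites that was also outside it. Each line gives the 250 bases before the annotated start, 5′ to 3′ on the gene's strand, from RefSeq on GRCm38.p6, with the letters TAATT or their reverse complement AATTA, the core that many homeodomain factors bind, in capitals. The windows are chr2:71529195-71529444 (Dlx1), chr2:73271676-73271925 (Sp9) and chr5:30711314-30711563 (Dpysl5), all on the plus strand.
Dlx1: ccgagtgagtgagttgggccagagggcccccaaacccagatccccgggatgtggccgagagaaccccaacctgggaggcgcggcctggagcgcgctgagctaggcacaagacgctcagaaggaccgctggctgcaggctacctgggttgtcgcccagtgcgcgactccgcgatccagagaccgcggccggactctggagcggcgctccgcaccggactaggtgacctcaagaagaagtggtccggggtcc
Sp9: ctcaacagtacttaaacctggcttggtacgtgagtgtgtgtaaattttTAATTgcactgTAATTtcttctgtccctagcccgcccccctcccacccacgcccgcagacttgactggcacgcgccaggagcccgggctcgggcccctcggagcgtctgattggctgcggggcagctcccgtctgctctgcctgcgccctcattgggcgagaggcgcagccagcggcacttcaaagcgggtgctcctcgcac
Dpysl5: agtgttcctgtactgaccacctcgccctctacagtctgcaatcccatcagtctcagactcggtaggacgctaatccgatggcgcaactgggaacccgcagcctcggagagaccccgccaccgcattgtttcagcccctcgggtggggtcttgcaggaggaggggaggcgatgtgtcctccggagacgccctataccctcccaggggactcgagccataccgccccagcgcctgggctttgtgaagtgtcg
The Sp9 window held these letters 2 times, and the Dlx1 and Dpysl5 windows held none. Of all 27025 promoters in the table, 25.4% held them at least once on either strand. A match is a run of letters and not a binding site.

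To see whether the 6 genes marked the same spots, each gene was measured in the top 5% of spots chosen by the other 5. In libraries 3 and 4 every gene remained higher in such spots. There Dcx was 4.26-fold (3.34 to 5.36) and 5.72-fold (4.36 to 7.39) higher, Sox11 6.90-fold (4.84 to 9.64) and 7.61-fold (5.17 to 10.9) higher, and Cd24a 3.91-fold (2.65 to 5.59) and 6.70-fold (4.57 to 9.57) higher. In libraries 1 and 2 Dcx was 1.88-fold (1.21 to 2.79) and 2.67-fold (1.51 to 4.39) higher and Sox11 4.19-fold (1.77 to 8.50) and 8.19-fold (3.15 to 17.9) higher, the Sox11 values on 8 and 7 UMIs. Cd24a gave ratios of 1.51 (0.800 to 2.60) and 0.623 (0.0750 to 2.28) in libraries 1 and 2, whose intervals hold 1. Dlx1 gave 2.15 (1.69 to 2.70) and 1.52 (1.01 to 2.22) there. With Dlx1 left out of the score, 55.4%, 40%, 70.3% and 78.7% of the member spots of libraries 1 to 4 were still chosen. Among all kept spots the 6 genes thus coincided in the same spots in libraries 3 and 4, and in libraries 1 and 2 for some genes and more weakly for others. Among spots with at least 2000 UMIs, the intervals of all 6 genes lay above 1 in library 1. There Cd24a had 1.83 (1.23 to 2.64) and Igfbpl1 2.62 (1.23 to 4.98). In library 2 the intervals of Cd24a (0.426, 0.0512 to 1.56) and Dlx2 (1.61, 0.796 to 2.92) still held 1.

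**Figure D3:**
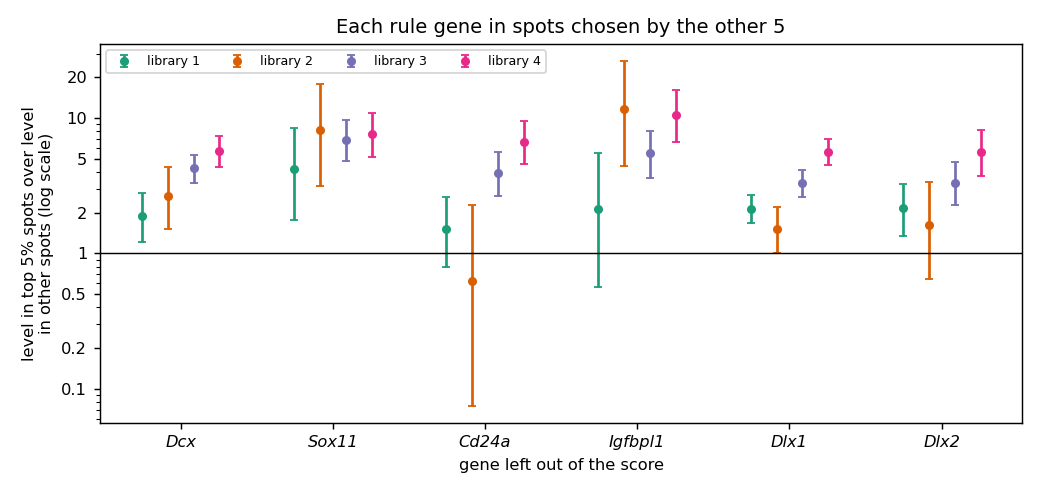
For each score gene, its level in the top 5% of spots chosen by the other 5 genes over its level in the other spots (log scale), for libraries 1 to 4 (colours), with exact 95% intervals. In libraries 3 and 4 every point lies above 1, while in libraries 1 and 2 the intervals of Cd24a hold 1, as do that of Igfbpl1 in library 1 and that of Dlx2 in library 2.

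Genes outside the score were then compared between member spots and other spots. Of genes with at least 200 UMIs in a library, 10.6%, 14%, 8.75% and 11% were at least 2-fold higher in member spots of libraries 1 to 4, and 8.11%, 9.28%, 7.32% and 7.88% were at least 2-fold lower. These shares are the background for each count below. Spots are not replicates, so no test was run, and a difference is read from its interval.

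The transcription factors of interneuron fate were higher in member spots than in all other spots, and in libraries 1 and 2 not measurably higher than in spots of like depth. Summed over the list, the ratio to spots of like depth was 1.08 (0.956 to 1.21) and 1.04 (0.870 to 1.23) in libraries 1 and 2 and 1.49 (1.35 to 1.65) and 1.82 (1.60 to 2.06) in libraries 3 and 4. The ratio to all other spots was 1.56, 1.63, 2.26 and 2.57. Of the genes listed for this fate, 4 of 15, 4 of 13, 10 of 14 and 8 of 14 measured ones were at least 2-fold higher in libraries 1 to 4, against the backgrounds of 10.6%, 14%, 8.75% and 11%. The median log2 ratio of the list was 0.50, 0.33, 1.16 and 1.61, against 0.19, 0.19, 0.17 and 0.18 over all genes measured. Sp9, Meis2 and Tshz1 were at least 2-fold higher in all 4 libraries. Sp9 had 188, 187, 133 and 172 CPM in member spots and 66.1, 77.9, 44.3 and 38.0 CPM in other spots. The ratio of Sp9 to spots of like depth was 1.58 (0.979 to 2.54), 1.08 (0.523 to 2.15), 1.85 (1.16 to 2.96) and 1.62 (1.0 to 2.62). Meis2, a homeobox gene kept on in granule cells, had 748, 990, 516 and 687 CPM in member spots and 371, 422, 231 and 225 CPM in other spots. Its ratio to spots of like depth was 1.11 (0.894 to 1.38), 1.15 (0.849 to 1.53), 1.46 (1.17 to 1.82) and 2.05 (1.60 to 2.63). Dlx5, a relative of Dlx1, had 144, 80.3, 162 and 106 CPM in member spots and 56.8, 60.01, 36.9 and 31.7 CPM in other spots. Its ratio was 4.38 (3.16 to 5.94) and 3.35 (2.04 to 5.21) in libraries 3 and 4, and 2.54 (1.65 to 3.75) and 1.34 (0.487 to 2.94) in libraries 1 and 2. At like depth the interval of Dlx5 lay above 1 in library 3 (1.88, 1.23 to 2.87) and held 1 in the others. Dlx6os1, a long noncoding RNA next to Dlx6, was 1.93-fold (1.3 to 2.77), 1.72-fold (0.882 to 3.03), 4.52-fold (3.37 to 5.94) and 3.93-fold (2.57 to 5.79) as high in member spots as in all other spots. At like depth it was 1.94-fold (1.13 to 3.31), 1.42-fold (0.619 to 3.15), 3.26-fold (2.10 to 5.11) and 3.75-fold (1.93 to 7.55) as high.

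Sox4, a transcription factor of young neurons close to Sox11, was higher in member spots in libraries 3 and 4 and not in libraries 1 and 2. It had 66.5, 66.9, 130 and 232 CPM in member spots, against 68.5, 68.6, 59.1 and 52.5 CPM in other spots. Member spots of libraries 1 and 2 did not exceed other spots, with ratios of 0.970 (0.50 to 1.70) and 0.976 (0.315 to 2.30). Those of libraries 3 and 4 did, with ratios of 2.20 (1.54 to 3.06) and 4.43 (3.20 to 6.0). Against other spots of like depth the ratio in library 4 was 4.86 (2.79 to 8.78), and the interval in library 3 held 1 (1.42, 0.908 to 2.21).

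Among cytoskeletal and growth genes of immature neurons, 5, 4, 6 and 8 of 22 were at least 2-fold higher in libraries 1 to 4, and 2, 2, 2 and 0 were at least 2-fold lower, against the backgrounds given above. The list median of the log2 ratio was 0.23, 0.08, 0.53 and 0.68. Nrep, a neuronal regeneration related protein, had 238, 294, 404 and 581 CPM in member spots, against 75.8, 89.3, 83.7 and 76.6 CPM in other spots. Its level in other spots was alike in the 4 libraries, and its level in member spots was highest in library 4. The ratio was 3.14 (2.26 to 4.26), 3.29 (2.04 to 5.05), 4.83 (3.94 to 5.86) and 7.59 (6.18 to 9.25). Against spots of like depth the ratios were 2.88 (2.14 to 3.87) and 5.92 (4.08 to 8.74) in libraries 3 and 4, where Nrep had the third highest and the highest lower bound of the named genes measured outside the score. In libraries 1 and 2 they were 1.43 (0.947 to 2.16) and 1.48 (0.811 to 2.64).

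Dpysl5 had 66.5, 161, 183 and 217 CPM in member spots and 33.1, 45.1, 46.0 and 39.3 CPM in other spots. It was also 2.31-fold (1.52 to 3.52) and 3.08-fold (1.87 to 5.15) higher than in spots of like depth in libraries 3 and 4, and in libraries 1 and 2 that interval held 1. Tubb2b, a beta-tubulin of growing neurons, had 222, 161, 449 and 586 CPM in member spots and 86.8, 89.5, 159 and 158 CPM in other spots. Its ratio to spots of like depth was 1.70 (1.09 to 2.65), 1.01 (0.458 to 2.09), 1.80 (1.41 to 2.31) and 2.77 (2.07 to 3.71). Tubb3, the neuronal beta-tubulin, had ratios to all other spots of 0.926 (0.738 to 1.15), 0.754 (0.496 to 1.10), 1.36 (1.16 to 1.58) and 1.53 (1.27 to 1.82). At like depth the ratios of Tubb3 were 1.18 (0.887 to 1.55), 1.02 (0.620 to 1.66), 1.54 (1.25 to 1.90) and 1.74 (1.37 to 2.21). Stmn2, a microtubule regulator that stays high in long-axon neurons, was lower in member spots of libraries 1 and 2 than in all other spots, with ratios of 0.410 (0.25 to 0.635) and 0.354 (0.130 to 0.773), while at like depth its interval held 1 in each library. Dclk2, a kinase related to doublecortin, was higher than in all other spots in the 4 libraries, by 2.24-fold to 2.88-fold.

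Among migration and guidance genes, 1 of 12, 1 of 8, 2 of 14 and 2 of 13 measured ones were at least 2-fold higher, shares close to the backgrounds. The receptor Prokr2, through which prokineticin guides neuroblasts into the bulb, was under the limit of 200 UMIs per library and is described from its few counts. It had 2, 1, 21 and 22 UMIs in member spots, which is 11.1, 13.4, 73.7 and 111 CPM, against 2.59, 1.94, 8.74 and 5.78 CPM in other spots. In libraries 3 and 4 the ratio to all other spots was 8.44 (5.02 to 13.6) and 19.2 (11.1 to 32.1), and to spots of like depth 5.25 (2.23 to 13.7) and 6.31 (2.60 to 17.5). Draxin, a repulsive guidance protein, had 11 and 4 UMIs in member spots of libraries 3 and 4 and 1 UMI in those of library 1 as of library 2. Its ratio to all other spots was 24.9 (10.7 to 55.1) in library 3 and 15.7 (3.70 to 51.9) in library 4, and at like depth the library 4 interval held 1. Lrp8, a receptor for reelin, was the 1 measured gene of this list that was at least 2-fold higher in all 4 libraries, with 150, 161, 176 and 162 CPM in member spots and 56.6, 62.0, 55.8 and 56.8 CPM in other spots. At like depth the intervals of Lrp8 held 1 in libraries 1 and 2 and lay above 1 in libraries 3 (1.96, 1.3 to 2.96) and 4 (1.95, 1.16 to 3.26). Robo2, a Slit receptor, had ratios of 1.0, 0.435, 1.08 and 1.49, all with intervals that held 1.

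Proliferation genes were rare. Mki67, which marks dividing cells, had 0, 1, 4 and 4 UMIs in the member spots of libraries 1 to 4, and the interval of the 0 in library 1 reaches 20.4 CPM. Summed over the list, member spots had 161, 227, 284 and 424 CPM, against 155, 146, 269 and 262 CPM in other spots. The interval of the ratio lay above 1 in library 4 (1.62, 1.29 to 2.02) and held 1 in the other three libraries.

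Within libraries 3 and 4 the immature neuron list, which is outside the score, fell with score rank over the first 10% of spots. Its summed level in library 4 was 18251 CPM in the top 1% of spots, 11623 CPM between 1 and 2%, 10689 CPM between 2 and 5% and 7554 CPM between 5 and 10%. In library 3 the same steps gave 13754, 11144, 9230 and 8051 CPM. In library 1 they gave 6480, 7602, 6202 and 5383 CPM and in library 2 9261, 8140, 5724 and 6069 CPM, the top steps there on 16 and 7 spots. The interneuron fate list did not fall step by step in library 4, with 2662, 3165 and 2214 CPM in the first 3 steps. The granule cell list was lower in the top 1% than in the 5 to 10% step in libraries 3 and 4 (2350 against 4384 CPM and 2102 against 3548 CPM), and higher in the top 1% in library 1 (5064 against 3035 CPM). In library 2 both steps had overlapping intervals, with 4698 (3656 to 5946) and 4307 (3945 to 4692) CPM.

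**Figure D4:**
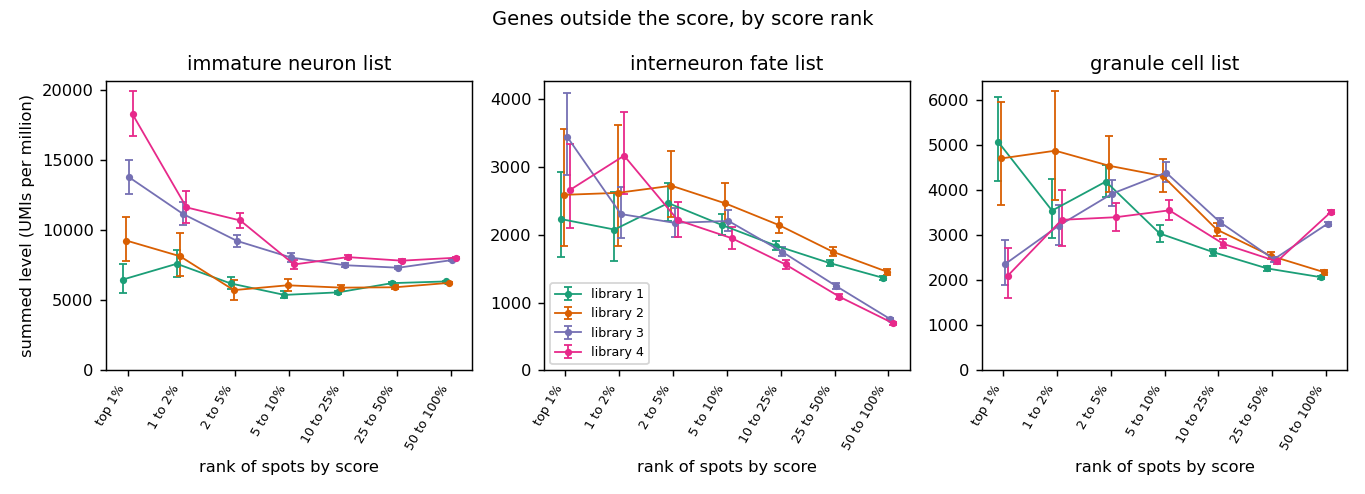
Summed level (CPM) of 3 gene lists that the score did not use, in spots ranked by score from the top 1% (left) to the lower 50% (right), for libraries 1 to 4 with exact 95% Poisson intervals. The immature neuron list is highest in the top 1% in libraries 2, 3 and 4, in library 2 on 7 spots. In library 1 it is highest in the 1 to 2% step and lowest in the 5 to 10% step. The granule cell list is low in the top 1% in libraries 3 and 4.

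Granule cells are the nearest relatives of these spots, and both share Dlx genes. Of member spots, 24.1%, 20%, 7.81% and 2.13% were also among the top 5% of their library by the granule cell list. By the immature neuron list, 9.64%, 14.3%, 35.9% and 44.7% of member spots were, and by the interneuron fate list 18.1%, 20%, 29.7% and 36.2% were. Over all kept spots each share is 5%. Member spots were shallow, and the share that shallow spots would have was not tested. Lists of other cells went both ways. The oligodendrocyte precursor list took 15.7%, 22.9%, 4.69% and 8.51% of member spots, and the mitral and tufted cell list took 0% in each library. In libraries 1 and 2 the overlaps given above were thus not clearly apart from that of a list of other cells. The granule cell list holds Nrgn, encoding the calmodulin-binding protein neurogranin, which is also a gene of forebrain excitatory neurons. Without Nrgn, a change made after its values were seen, the overlap with granule cell spots was 18.1%, 22.9%, 12.5% and 8.51%. With the top 10% taken by the score and by this list, it was 29.52%, 29.58%, 31.01% and 37.23%, against 10% over all kept spots. At that cut the overlap in libraries 3 and 4 was not lower than in libraries 1 and 2.

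Set against non-member spots of the granule cell list without Nrgn, member spots showed no measurable excess of genes of the shared lineage. These granule cell spots were deeper than member spots in each library, with medians of 2217.5, 2419, 5538 and 5939 UMIs, and were not matched on depth. Ratios of Meis2 were 0.906 (0.719 to 1.14), 0.954 (0.695 to 1.31), 0.798 (0.644 to 0.985) and 1.04 (0.828 to 1.31), and the library 3 interval alone lay under 1. Those of Sp9 ran from 1.02 to 1.42, those of Dlx5 from 0.571 to 1.13 and those of Dlx6os1 from 0.828 to 1.3, all with intervals that held 1. Genes of immature neurons did differ, in libraries 3 and 4. Nrep was 2.62-fold (1.88 to 3.68) and 4.07-fold (2.81 to 6.01) higher than in granule cell spots, Tubb2b 1.71-fold (1.3 to 2.25) and 2.25-fold (1.66 to 3.07), Sox4 1.78-fold (1.05 to 3.07) and 4.23-fold (2.32 to 8.16), and Dpysl5 2.04-fold (1.29 to 3.27) and 2.12-fold (1.29 to 3.54). In libraries 1 and 2 the intervals of all 4 genes held 1. Gad1, the enzyme that makes the transmitter GABA, was lower in member spots than in granule cell spots in each library, with ratios of 0.708 (0.616 to 0.813), 0.631 (0.494 to 0.802), 0.661 (0.583 to 0.748) and 0.598 (0.507 to 0.703).

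**Figure D5:**
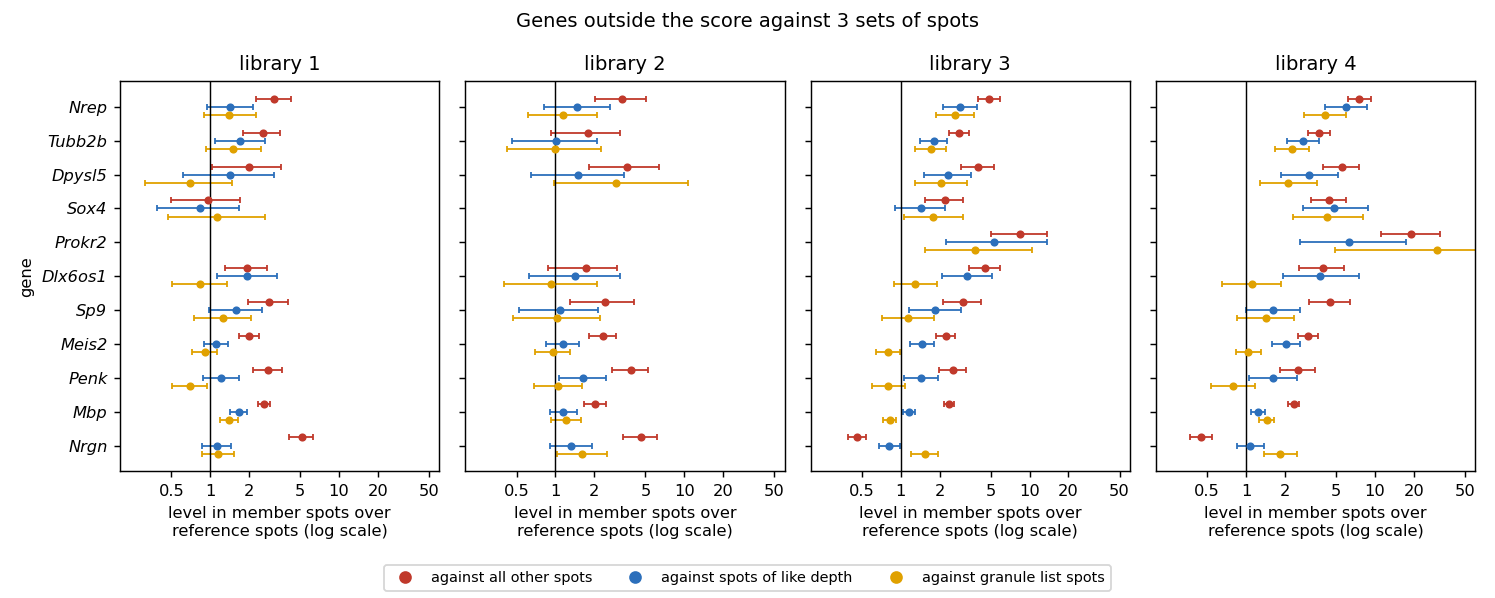
Level of 11 genes outside the score in member spots over their level in all other spots (red), in other spots of like depth (blue) and in non-member granule list spots without Nrgn in the list (yellow), for libraries 1 to 4 (log scale, exact 95% intervals). Points with under 10 member UMIs or no finite interval are not drawn, and the interval of Prokr2 against granule list spots runs past the axis in library 4. Nrep, Tubb2b and Dpysl5 lie above 1 against all 3 sets in libraries 3 and 4, while Meis2 and Nrgn draw near 1 against spots of like depth in libraries 1 and 2.

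Markers of other cells moved with the member spots too. Of measured oligodendrocyte genes 3 of 8, 5 of 7, 3 of 8 and 4 of 8 were at least 2-fold higher, and none was at least 2-fold lower. Their summed level was 3694, 3278, 3333 and 4244 CPM in member spots and 1556, 1627, 1812 and 2107 CPM in other spots. Mbp, a structural protein of myelin, had 1833, 1472, 1851 and 2203 CPM in member spots and 701, 726, 785 and 940 CPM in other spots. The ratio of Mbp to spots of like depth was 1.67 (1.44 to 1.94), 1.15 (0.903 to 1.46), 1.17 (1.05 to 1.3) and 1.24 (1.10 to 1.40). Of measured granule cell genes 4 of 10, 3 of 9, 2 of 10 and 2 of 11 were at least 2-fold higher and 2, 1, 2 and 2 at least 2-fold lower. Their summed level was 4182, 4629, 3554 and 3198 CPM in member spots and 2222, 2440, 3081 and 3122 CPM in other spots. These sums hold Nrgn, which had 548 and 561 CPM in member spots and 1197 and 1253 CPM in other spots of libraries 3 and 4. In libraries 3 and 4 the sums therefore understate the excess of the remaining granule cell genes in member spots. Penk, the enkephalin precursor made by some granule cells, had 366, 575, 274 and 217 CPM in member spots and 130, 150, 108 and 85.7 CPM in other spots. Its ratio to spots of like depth was 1.22 (0.887 to 1.68), 1.63 (1.07 to 2.49), 1.43 (1.06 to 1.93) and 1.63 (1.06 to 2.48). Mbp and Penk were thus 2.03-fold to 3.83-fold higher than in all other spots, and the difference from spots of like depth was smaller. The part that oligodendrocytes and granule cells within the spots have in the results was not tested. A higher level in a spot cannot be told apart from more cells of a type in it.

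Nrgn was higher in member spots than in other spots in libraries 1 and 2 and lower in libraries 3 and 4. By the lower bound of the ratio it was the first gene of library 1 and came next to Kcnh3, a potassium channel gene, in library 2. It had 543, 656, 548 and 561 CPM in member spots, a like level throughout, against 106, 143, 1197 and 1253 CPM in other spots. Its ratio was 5.12 (4.13 to 6.29) in library 1 and 0.448 (0.368 to 0.539) in library 4, and the levels that differed between these libraries were those of the other spots. Forebrain excitatory genes moved the same way. Their summed level was 382, 388, 460 and 515 CPM in member spots and 176, 200, 917 and 1030 CPM in other spots. The ratios of Nrgn to spots of like depth were 1.13 (0.871 to 1.45), 1.33 (0.909 to 1.94), 0.817 (0.674 to 0.987) and 1.08 (0.851 to 1.37).

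Genes of the bulb's outer layers and coverings were lower in member spots. Of measured mitral and tufted cell genes, the markers of the bulb's output neurons, 8 of 9, 6 of 7, 6 of 9 and 7 of 9 were at least 2-fold lower, against backgrounds of 8.11%, 9.28%, 7.32% and 7.88%. Cdhr1, a cadherin-related protein of these neurons, had 150, 93.7, 105 and 96.0 CPM in member spots, against 784, 685, 354 and 323 CPM in other spots. Its ratio was 0.191, 0.137, 0.298 and 0.297 to all other spots, and 0.557 (0.350 to 0.861), 0.782 (0.276 to 1.96), 0.480 (0.311 to 0.720) and 0.465 (0.266 to 0.773) to spots of like depth. The list median of the log2 ratio moved likewise, being -0.58, -0.38, -0.72 and -0.66 at like depth, against -1.56, -2.77, -1.33 and -1.58 in the comparison with all other spots. All measured leptomeningeal genes but 1 in library 1 were at least 2-fold lower, 5 of 6, 5 of 5, 8 of 8 and 8 of 8. Ptgds, which encodes a prostaglandin synthase abundant in the meninges, had 1030, 883, 1643 and 995 CPM in member spots and 3107, 4340, 7760 and 5676 CPM in other spots. The median log2 ratio of the leptomeningeal list was between -2.60 and -1.76 against all other spots and between -3.42 and -2.33 against spots of like depth. Phagocyte genes were at least 2-fold lower for 2 of 6, 2 of 3, 7 of 8 and 6 of 8 genes, and reactive glia genes for 1 of 3, 0 of 1, 7 of 8 and 7 of 7. Genes of VEGF ligands and receptors did not stand apart, with summed ratios of 1.08 (0.826 to 1.39), 0.778 (0.452 to 1.3), 0.931 (0.763 to 1.13) and 1.0 (0.793 to 1.3).

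Over all genes, 88 of 5387 measured in each library (1.63%) were at least 2-fold higher in member spots of all 4 libraries, and 60 (1.11%) were at least 2-fold lower. Metap1d, a mitochondrial methionine aminopeptidase, had the highest lowest ratio, with 277, 334, 207 and 222 CPM in member spots and 82.1, 93.8, 55.6 and 54.7 CPM in other spots. At like depth its intervals held 1 in libraries 1 and 2 and lay above 1 in libraries 3 (1.71, 1.19 to 2.46) and 4 (2.32, 1.47 to 3.69). Nrep followed. Among the 20 leading genes were the calcium channel genes Cacna1h, Cacna1c and Cacna1g, the glutamate receptor gene Grm4, Lrp8, Penk, Sp9 and the myelin gene Mobp. Against spots of like depth no gene was at least 2-fold higher in all 4 libraries, and 21 were at least 2-fold lower. In single libraries 158, 96, 341 and 454 genes were then at least 2-fold higher with an interval above 1, which is 1.76%, 1.77%, 3.73% and 5.65% of those measured. Chosen after these values were seen, those with the highest lower bounds in library 4 were Nrep, Sox4, Rprd1b, Abi3bp and Slit1, and in library 3 they were Tet2, Vip, Nrep, Dlx6os1 and Sema6c. In libraries 1 and 2 no gene of the neuroblast lists stood among the first 8.

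Judged by genes outside the score, the label of migratory stream neuroblast spots therefore holds unevenly. In libraries 3 and 4 Nrep, Dpysl5, Tubb2b and Prokr2, all outside the score, were higher in member spots than in all other spots. They were also higher than in spots of like depth and than in granule cell spots. The genes of the score coincided in libraries 3 and 4, which describes the choice of spots. That coincidence was not compared with spots of like depth. In libraries 1 and 2 the spots were shallow and led by Dlx1, a gene of the score, and 42 of 83 and 18 of 35 of them held any Dcx. There Nrep and Dpysl5 were higher than in all other spots, and Tubb2b in library 1 was also higher than in spots of like depth. Sox4, Tubb3 and Prokr2 were not measurably higher there, and the intervals of Nrep and Dpysl5 at like depth held 1. The summed immature neuron list was still 1.16-fold (1.08 to 1.25) and 1.20-fold (1.08 to 1.34) as high as in spots of like depth there. No value ties this difference between libraries to a mouse, a section or a depth of cut.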

How the data were processed

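The authors deposited 1 matrix of raw UMI counts per gene and spot, and the file headers name Space Ranger 1.3.1. GRCm39 is the build in the submitters' processing notes. Read filters and library scaling are not stated there. No column or barcode names a sample, so the planned comparison of mutant with control was not run. Spots with at least 500 UMIs were kept (4616 of 4713). Libraries held 13304973, 5223890, 12533691 and 9533952 UMIs. Counts were summed over member spots and other spots of each library. Levels carry exact Poisson intervals and ratios exact conditional binomial intervals at 95%. They cover counting error only, and 3 UMIs in member spots correspond to 16.6, 40.1, 10.5 and 15.2 CPM. A gene was measured where its library held at least 200 UMIs, and log2 ratios used a prior count of 0.5. The named genes were the 6 score genes, genes of 27 lists, the 20 with the highest lowest and the 10 with the lowest highest ratio over libraries, and 5 per library by lower bound. Score genes, mitochondrial, ribosomal protein and unnamed genes were left out of the last 3 sets. Members and lists were chosen with earlier results of these data known. Doublets have no meaning for spots, and no position or image was used. Simulated Poisson counts were used to check the code of the intervals and ratios. They were drawn from the model that the intervals assume and say nothing on spread between spots. Of 19 genes looked up, 12 had a promoter in the RefSeq table, of which the first was used. Python 3.11.15, NumPy 2.4.6, SciPy 1.17.1 and pandas 2.3.3 were used.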

Additional observations from a re-analysis of the deposited data

Results flagged for a closer look

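The 97 spots with under 500 UMIs that were set aside still held UMIs of the 6 score genes. There were 22 of them among 27613 UMIs, which is 797 CPM (counts per 1000000 UMIs, 499 to 1206), above the 109 CPM that a count of 0 would allow. No spots serve as a control for this level.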

How the results depend on the processing

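No paired analysis was possible because the library numbers carry no group. All results rest on few UMIs per spot, which limits single genes in libraries 1 and 2 most. The cause of the changes below was not tested. Genes at least 2-fold higher and lower in all libraries numbered 88 and 60. They numbered 37 and 26 with the top 10% as members, 13 and 24 with at least 2000 UMIs per spot, 0 and 2 with spots thinned to 2000 UMIs (fewer spots and UMIs), 39 and 37 with at least 500 UMIs per gene, 441 and 157 at 1.5-fold, and 251 and 134 by an interval off 1. Against spots of like depth, added after the data were seen, they numbered 0 and 21. The higher ones numbered 43 with spots weighted alike, 54 without mitochondrial UMIs and 32 with a score without Dlx1. Leaving out 1 library gave 122 to 167 higher (138 without library 1, 167 without library 2) and 72 to 121 lower (121 without library 2), over the libraries that remained. Counts for libraries 1 to 4 changed as follows. With the top 2% as members, 1900, 1151, 1434 and 1522 genes were higher, and 1265, 899 and 1046 lower in libraries 1, 2 and 4. With the top 10%, 241, 366 and 584 were higher and 253, 272 and 404 lower in libraries 1, 2 and 4. With at least 2000 UMIs per spot, 191 and 486 were higher in libraries 1 and 2 and 259 lower in library 1. After thinning, 46, 16, 90 and 70 were higher and 49, 22, 143 and 117 lower. With at least 100 UMIs per gene, 1442 and 1405 were higher and 890 and 964 lower in libraries 2 and 4. With at least 500, 401, 184, 337 and 266 were higher and 345, 173, 312 and 289 lower. At 1.5-fold, 2463, 1617, 2345 and 2205 were higher and 1385, 966, 1325 and 1253 lower. By an interval off 1, 1720 and 1397 were higher in libraries 3 and 4 and 323 lower in library 2. Without Dlx1 in the score, 554 and 446 were higher in libraries 1 and 2 and 481 lower in library 1. The median log2 ratio of the interneuron fate list became 1.38 in library 3 with the top 2%, 1.29 in library 4 with the top 10%, 0.74 in library 2 with at least 2000 UMIs, 0.79 in library 3 after thinning, 0.99 in library 3 with spots weighted alike, 0.27 in library 1 without mitochondrial UMIs, and 0.15, 0.55 and 0.77 in libraries 1, 3 and 4 against spots of like depth. That of the immature neuron list became 0.58, 0.72 and 0.97 in libraries 2, 3 and 4 with the top 2%, 0.33 and 0.35 in libraries 3 and 4 with the top 10%, 0.57 in library 4 with at least 2000 UMIs, -0.12, 0.30 and 0.35 in libraries 1, 3 and 4 after thinning, 0.77 in library 4 with spots weighted alike, and 0.37 in library 3 against spots of like depth. With a score without 1 gene it became 0.037 in library 1 (Dcx), 0.39 and 0.58 in libraries 3 and 4 (Sox11), 0.43 in library 3 (Cd24a), and 0.48 and 0.58 in libraries 2 and 4 (Dlx1). Both lists stayed above 0 in libraries 3 and 4 under each alternative that gave a value, and the immature neuron list went below 0 in library 1 after thinning and in library 2 with spots weighted alike and without mitochondrial UMIs. After thinning, too few interneuron fate genes were left for a median in libraries 2 and 4. Among list medians and named genes at least 2-fold apart, those whose sign turned were the list medians of ensheathing glia in library 1 (0.073, top 10%), periglomerular cells in library 1 (0.23, at least 2000 UMIs), red blood cells in library 1 (1.03, thinned) and immature sensory neurons in library 3 (0.33, like depth). The lowest log2 ratio over libraries turned for Ipcef1 (-0.15), Necab2 (-0.33) and Mobp (-0.032) after thinning, and for Metap1d (-0.087), Myo9b (-0.18) and Cacna1g (-0.18) against spots of like depth. The highest turned for Hapln4 (0.039 thinned, 1.01 against spots of like depth). In all, 1067 list medians and 457 named gene values moved by less than their counting error, and 209 and 75 moved by more.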
